A study of Homo sapiens with 46 samples.

Results

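POU5F1, NANOG, SOX2, PRDM14, SALL4, LIN28A, LIN28B, L1TD1, DPPA4 and TDGF1 are 10 genes used as marks of human pluripotent cells. They were taken by gene name from 4 transcript count tables, 1 for each cell type, and the rows of a gene were summed. The 4 tables together name 21183 Ensembl genes. All 10 members had rows in the table of pluripotent cells. The ectoderm table had 9, with no row for NANOG, and the endoderm table had 9, with no row for SOX2. The mesoderm table had 6, with no row for NANOG, SOX2, PRDM14 or TDGF1. Each table rests on a transcript assembly made for that cell type, so a gene without a row was not counted there, which is not a count of 0. Levels of the 10 genes are given in CPM, the counts of a gene scaled to a fixed library total, and the submitters' TPM, which also divide by transcript length, are used where genes are compared with each other.

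RNA was sequenced from H1 human embryonic stem cells (hPSC), grown on Matrigel in mTeSR1, and from 3 cultures derived from H1 and collected after 5 days. Endoderm was made with WNT3A and Activin A in RPMI with 0.5% serum. For mesoderm, Activin A was given at first and then replaced by VEGF, BMP4 and bFGF, and ectoderm was made in a medium with knockout serum replacement and the inhibitors A83-01, PNU-74654 and dorsomorphin. All 4 cell types come from this 1 line, the labels name no transgene, and all lysis buffers held α-amanitin, which stops RNA polymerase II. Cells were lysed with NP-40 and split over a sucrose cushion into cytoplasm and nucleus, and nuclei were lysed with urea into nucleoplasm and chromatin. The 46 libraries fall into 16 groups, 15 of 3 libraries and 1, mesoderm nucleoplasm, of a single library. The labels do not say that the 3 libraries of a group came from separate cultures, so p-values measure only the spread between these libraries, which may be technical. Each library is a bulk sample of a whole culture, in which fewer cells with a transcript and less of it per cell cannot be told apart.

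In human pluripotent cells the transcription factors POU5F1 (also called OCT4), SOX2 and NANOG bind together at enhancers and promoters, their own included, and keep the cells from differentiating. POU5F1 and SOX2 often bind side by side, POU5F1 on an octamer site and SOX2 on a site next to it. Around them stand the zinc finger factors PRDM14 and SALL4, the RNA-binding proteins LIN28A and LIN28B, which block the maturation of let-7 microRNAs, the RNA-binding protein L1TD1, the chromatin-associated protein DPPA4, and TDGF1 (Cripto), a membrane co-receptor for NODAL. Several are also used later: SOX2 in the neural lineage, and POU5F1, NANOG and TDGF1 in the primitive streak and its early derivatives.

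The promoter of NANOG is shown first because it holds a match to the joined octamer and SOX motif. It is the stretch of 250 bases before the start in the RefSeq table of GRCh38.p14, chr12:7789152-7789401 on the plus strand, and the capitals mark TTTGCATTACAATG, an octamer-like TTTGCAT followed after 1 base by the SOX-type ACAATG.
NANOG: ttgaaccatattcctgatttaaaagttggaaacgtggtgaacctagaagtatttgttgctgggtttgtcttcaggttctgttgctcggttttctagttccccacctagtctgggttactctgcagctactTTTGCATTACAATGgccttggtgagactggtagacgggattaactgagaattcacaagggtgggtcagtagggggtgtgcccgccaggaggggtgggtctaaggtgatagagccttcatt
SOX2: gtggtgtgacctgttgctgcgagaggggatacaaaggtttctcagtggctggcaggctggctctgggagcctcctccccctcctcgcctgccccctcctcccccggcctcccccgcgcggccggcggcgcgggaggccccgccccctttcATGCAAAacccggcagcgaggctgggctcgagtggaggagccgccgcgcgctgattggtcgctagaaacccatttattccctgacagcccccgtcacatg
The SOX2 promoter, chr3:181711675-181711924 on the plus strand, is set beside it as the other member with a TTTGCAT, here on the opposite strand, so that the capitals read ATGCAAA. Both strands of all 35116 promoters in the table were searched over the same length. TTTGCAT was found in 3.941% of them, ACAATG in 9.286%, and the joined form TTTGCATNACAATG in 0.006%, which is 2 promoters, 1 of them that of NANOG. The joined match covers both shorter motifs and lies 120 to 107 bases before the start of NANOG. The table held promoters of 5 of the 10 members, 1 each for NANOG, SOX2, L1TD1 and DPPA4 and 2 for LIN28B. Of the LIN28B promoters the upstream one, chr6:104940715-104940964 on the plus strand, held an ACAATG 140 to 135 bases before its start, and the other, chr6:104956857-104957106, held none of the 3 motifs. A match is a description of letters and not of binding, and no binding was measured here.

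By the GENCODE release 29 annotation of GRCh38, POU5F1 spans chr6:31164337-31180731 on the minus strand, NANOG chr12:7787794-7799141 on the plus strand and SOX2 chr3:181711924-181714436 on the plus strand. SALL4 spans chr20:51782331-51802520 on the minus strand, LIN28A chr1:26410778-26429722 on the plus strand and LIN28B chr6:104936616-105083332 on the plus strand. L1TD1 lies at chr1:62194831-62212328 on the plus strand, DPPA4 at chr3:109326141-109337572 on the minus strand, and TDGF1 at chr3:46574534-46582463 on the plus strand. All are protein-coding, as is PRDM14 on chromosome 8.

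Library totals ran from 4990408 to 21298678 counts. The 45 pairs of libraries within groups all differed by more than counting noise, with correlations of log values between 0.938 and 0.994. The lowest, 0.938 and 0.942, were pairs in mesoderm chromatin. That group also held the smallest library, and its share of mitochondrial counts ran from 0.769% to 5.53%, which limits its comparisons. The labelled identity was checked with marker genes. The ectoderm table held 7 of 8 ectoderm markers, all but SOX1, with a summed level of 1175 to 1408 CPM in cytoplasm against 337 to 369 CPM for the 2 of them in hPSC. The endoderm table held 8 of 8 endoderm markers at 455 to 617 CPM in cytoplasm, and none had a row in the hPSC or ectoderm table. The mesoderm table held 4 of 8 mesoderm markers, with no row for MIXL1, MESP1, KDR or FOXF1, at 134 to 141 CPM in cytoplasm. The hPSC table held 4 of the 8 as well, with no row for TBXT, MESP1, HAND1 or FOXF1, at 32.7 to 38.3 CPM in cytoplasm, and that of endoderm held all but MESP1, at 94.1 to 122 CPM. In the libraries labelled nucleus the order was the other way, with 396 to 469 CPM in hPSC and 40.4 to 48.5 CPM in mesoderm. These sums cover different genes, and that of hPSC holds KDR, which has no mesoderm row. PDGFRA and TBX6 have rows in both. Against hPSC in cytoplasm, mesoderm was lower for TBX6 (log2 change -0.895) and not called for PDGFRA (0.598). In nucleus PDGFRA was higher (2.78) and TBX6 lower (-0.85). In cytoplasm TBXT was higher in endoderm than in mesoderm (5.00), and HAND1 (-1.35) and TBX6 (-0.73) were lower. The mesoderm table also held 7 of 7 markers of trophoblast and amnion at 390.4 to 425.6 CPM in cytoplasm, against 24.1 to 31.2 CPM for the 2 of them in hPSC and 174 to 217 CPM for 4 in endoderm, and their part in the mesoderm results was not tested.

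The libraries labelled nucleus and cytoplasm went against their labels in part. Mitochondrial transcripts, which are made outside the nucleus, took 13.1% to 15.3% of the counts of the hPSC libraries labelled nucleus and 0.399% to 0.615% of those labelled cytoplasm. The same order held in ectoderm, with 8.15% to 10.2% against 0.936% to 1.58%, and in endoderm, with 8.09% to 16.1% against 0.423% to 0.460%. Mesoderm had the opposite order, 1.11% to 1.36% in nucleus and 5.84% to 7.46% in cytoplasm. Nucleoplasm, made from the nuclei, held 10.4% to 11.4% in hPSC, 7.91% to 9.77% in ectoderm and 10.2% to 11.9% in endoderm. In each of them it was nearer to the libraries labelled nucleus than to those labelled cytoplasm. The mesoderm nucleoplasm library held 1.69%. MALAT1, a noncoding RNA retained in the nucleus, was higher in the libraries labelled cytoplasm than in those labelled nucleus in hPSC (log2 change 1.44) and in ectoderm (log2 change 3.04), while the difference in endoderm (log2 change -0.63) and mesoderm (log2 change -0.76) was not called. NEAT1, also retained in the nucleus, was higher in cytoplasm in hPSC (log2 change 1.35) and ectoderm (log2 change 2.55) and lower in mesoderm (log2 change -0.97). KCNQ1OT1, another such RNA, was lower in cytoplasm in endoderm (log2 change -1.70) and mesoderm (log2 change -3.66). MALAT1 was highest in nucleoplasm among the group means of all 4 cell types. ACTB, RPLP0, GAPDH and EEF1A1, whose mRNAs are abundant in cytoplasm, were called higher in the cytoplasm libraries in 4 of 4 cases for hPSC, 3 for endoderm and 4 for mesoderm. In ectoderm all 4 were negative, and ACTB (log2 change -0.52) and RPLP0 (log2 change -0.72) were called lower in cytoplasm. Whether libraries labelled nucleus and cytoplasm were exchanged was not tested, and that limit holds for every comparison with either, above all in ectoderm. The comparison of chromatin with cytoplasm stands beside that of cytoplasm with the libraries labelled nucleus, and its markers were mixed too. MALAT1 and NEAT1 were lower in chromatin than in cytoplasm in hPSC (-0.91 and -1.28) and ectoderm (-1.49 and -1.03). They were higher in chromatin in mesoderm (1.50 and 1.74), and MALAT1 was in endoderm (1.98). KCNQ1OT1 was higher in endoderm (3.62) and mesoderm (4.27). ACTB, RPLP0, GAPDH and EEF1A1 were called lower in chromatin in every cell type. Mitochondrial transcripts took 4.51% to 5.80% of hPSC chromatin counts. A difference was called at an adjusted p under 0.05 in edgeR's quasi-likelihood test, adjusted over all genes tested, and log2 changes and folds are those of the fit after TMM scaling, given with standard errors (SE). Where a group held at most 3 counts of a gene, the ratio or bound given is one of CPM, without TMM or SE. For several members 3 libraries stood apart from their groups: cytoplasm replicate 1 and chromatin replicate 3 of hPSC, and replicate 1 of the endoderm libraries labelled nucleus. Member calls gained or lost without 1 of these 3 are given beside the results.

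In hPSC cytoplasm POU5F1 was the most abundant of the 10 genes per length, at 2540.0 ± 107 TPM (SD, n = 3). LIN28A followed at 527 ± 242 TPM, DPPA4 at 279 ± 39.4 TPM, TDGF1 at 257 ± 66.5 TPM and L1TD1 at 158 ± 32.7 TPM. This order held within each of the 3 libraries. POU5F1 lay clear of LIN28A, and L1TD1 of the next gene, while the ranges of LIN28A and DPPA4, of DPPA4 and TDGF1 and of TDGF1 and L1TD1 overlapped. SOX2 averaged 80.6 TPM and SALL4 45.4 TPM. LIN28B at 27.6 TPM, NANOG at 26.4 TPM and PRDM14 at 23.3 TPM had overlapping ranges. Of the 3 core factors POU5F1 thus stood at rank 1, SOX2 at rank 6 and NANOG at rank 9.

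**Figure D1:**
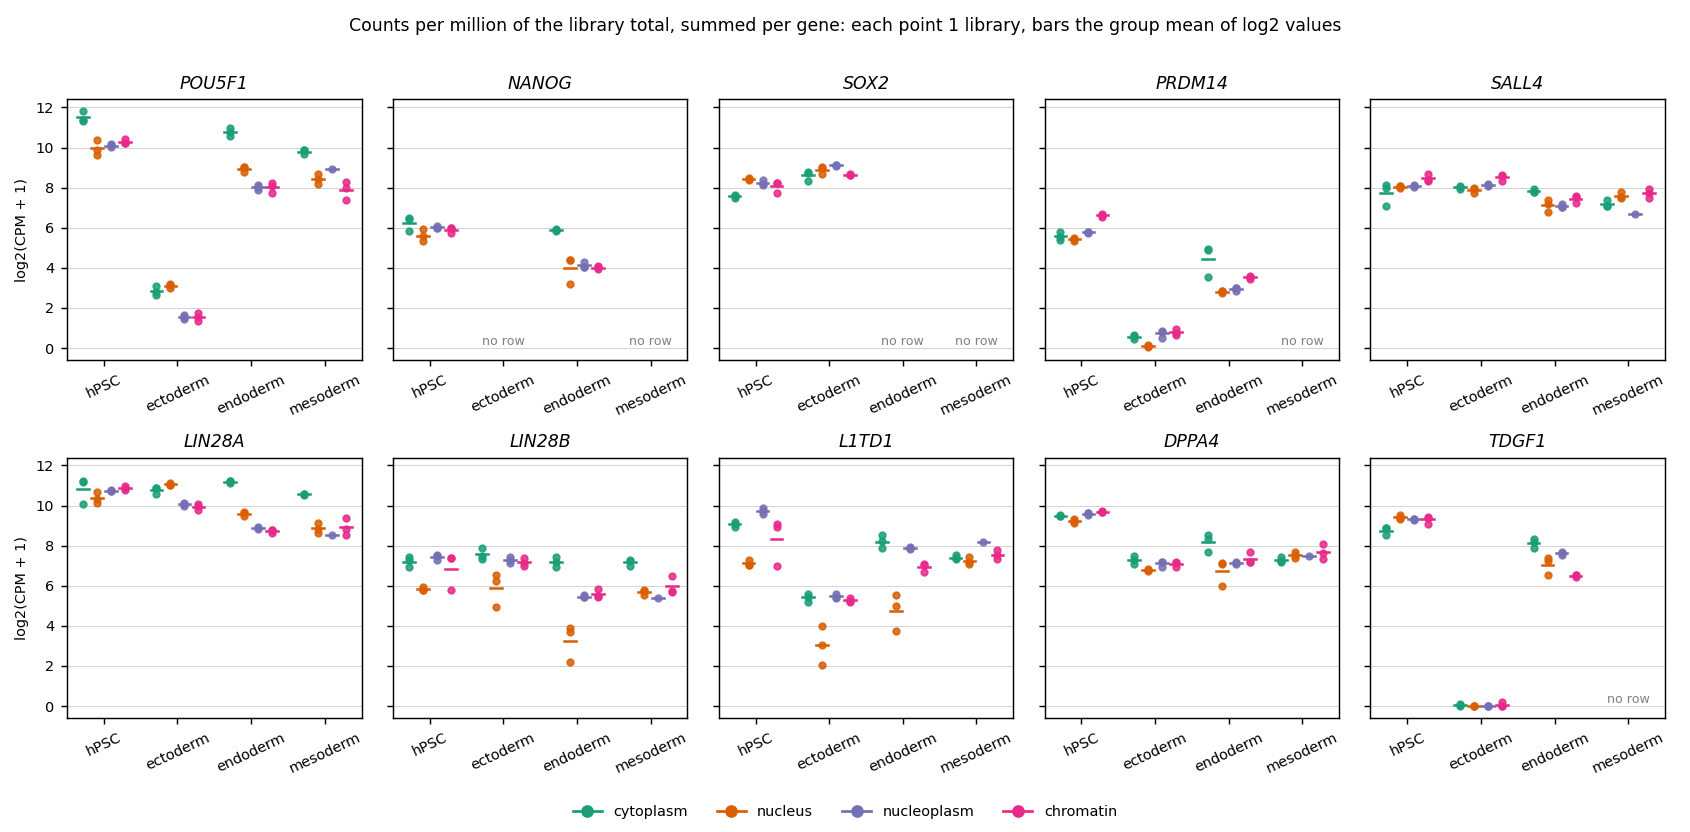
Level of each of the 10 genes in every library, in CPM on a log axis, by cell type and fraction; each point is 1 library, and a gene without a row in a table has no points. POU5F1 in ectoderm (1.56 to 8.29 CPM) and TDGF1 in ectoderm (0 to 0.148 CPM) lie far below the hPSC libraries, and SALL4 lies within 103 to 412 CPM in all 46 libraries.

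The next 3 cell type comparisons share the hPSC libraries, so they are not independent of each other. In ectoderm cytoplasm, 6 of the 9 members were called against hPSC, 1 higher and 5 lower, where 36.6% of all genes tested were called higher and 36.6% lower. The members' median log2 change was -2.31 and that of all genes 0.00. POU5F1, PRDM14, L1TD1, DPPA4 and TDGF1 were lower and SOX2 was higher, while SALL4, LIN28A and LIN28B were not called. In the libraries labelled nucleus 7 of 9 were called, 2 higher (SOX2 and LIN28A) and 5 lower, with 31.4% and 32.5% of all genes. In nucleoplasm 8 of 9 were called, 1 higher and 7 lower, with 39.4% and 39.9% of all genes. In chromatin 7 of 9 were called, 1 higher and 6 lower, with 35.3% and 34.4% of all genes. Ectoderm was thus lower than hPSC for POU5F1, PRDM14, L1TD1, DPPA4 and TDGF1 in all 4 fractions, and higher for SOX2 in all 4.

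In endoderm every member that was called against hPSC was lower. In cytoplasm 6 of 9 were called, 0 higher and 6 lower, with 26.0% and 24.8% of all genes, and the members' median log2 change was -0.79 beside -0.01 for all genes. In the libraries labelled nucleus 7 of 9 were called, 0 higher and 7 lower, with 26.1% and 25.0% of all genes. In nucleoplasm 9 of 9 were called, 0 higher and 9 lower, with 38.4% and 39.1% of all genes, and the median was -1.43. In chromatin 9 of 9 were called, 0 higher and 9 lower, with 32.0% and 31.6% of all genes, and the median was -1.91. SALL4, LIN28A and LIN28B were not called in cytoplasm and were lower in nucleoplasm and chromatin. Scaled to total counts without TMM, the share of higher calls among all calls went from 51.2% to 65.9% for cytoplasm, from 51.1% to 31.0% for libraries labelled nucleus, from 49.5% to 28.0% for nucleoplasm and from 50.3% to 38.2% for chromatin, and the median of all genes moved by 0.17, -0.40, -0.52 and -0.26 on the log2 scale.

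In mesoderm cytoplasm 4 of 6 members were called, 0 higher and 4 lower, with 33.5% and 32.4% of all genes and a members' median of -1.24 beside 0.01. In the libraries labelled nucleus 5 of 6 were called, 0 higher and 5 lower, with 35.3% and 35.5% of all genes. In chromatin 3 of 6 were called, 0 higher and 3 lower, with 23.2% and 19.4% of all genes. POU5F1 and DPPA4 were lower in all 3 fractions. Without TMM the share of higher calls in nucleus went from 49.9% to 60.0%, with the median of all genes moved by 0.18. Nucleoplasm, with 1 mesoderm library, was not tested.

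**Figure D2:**
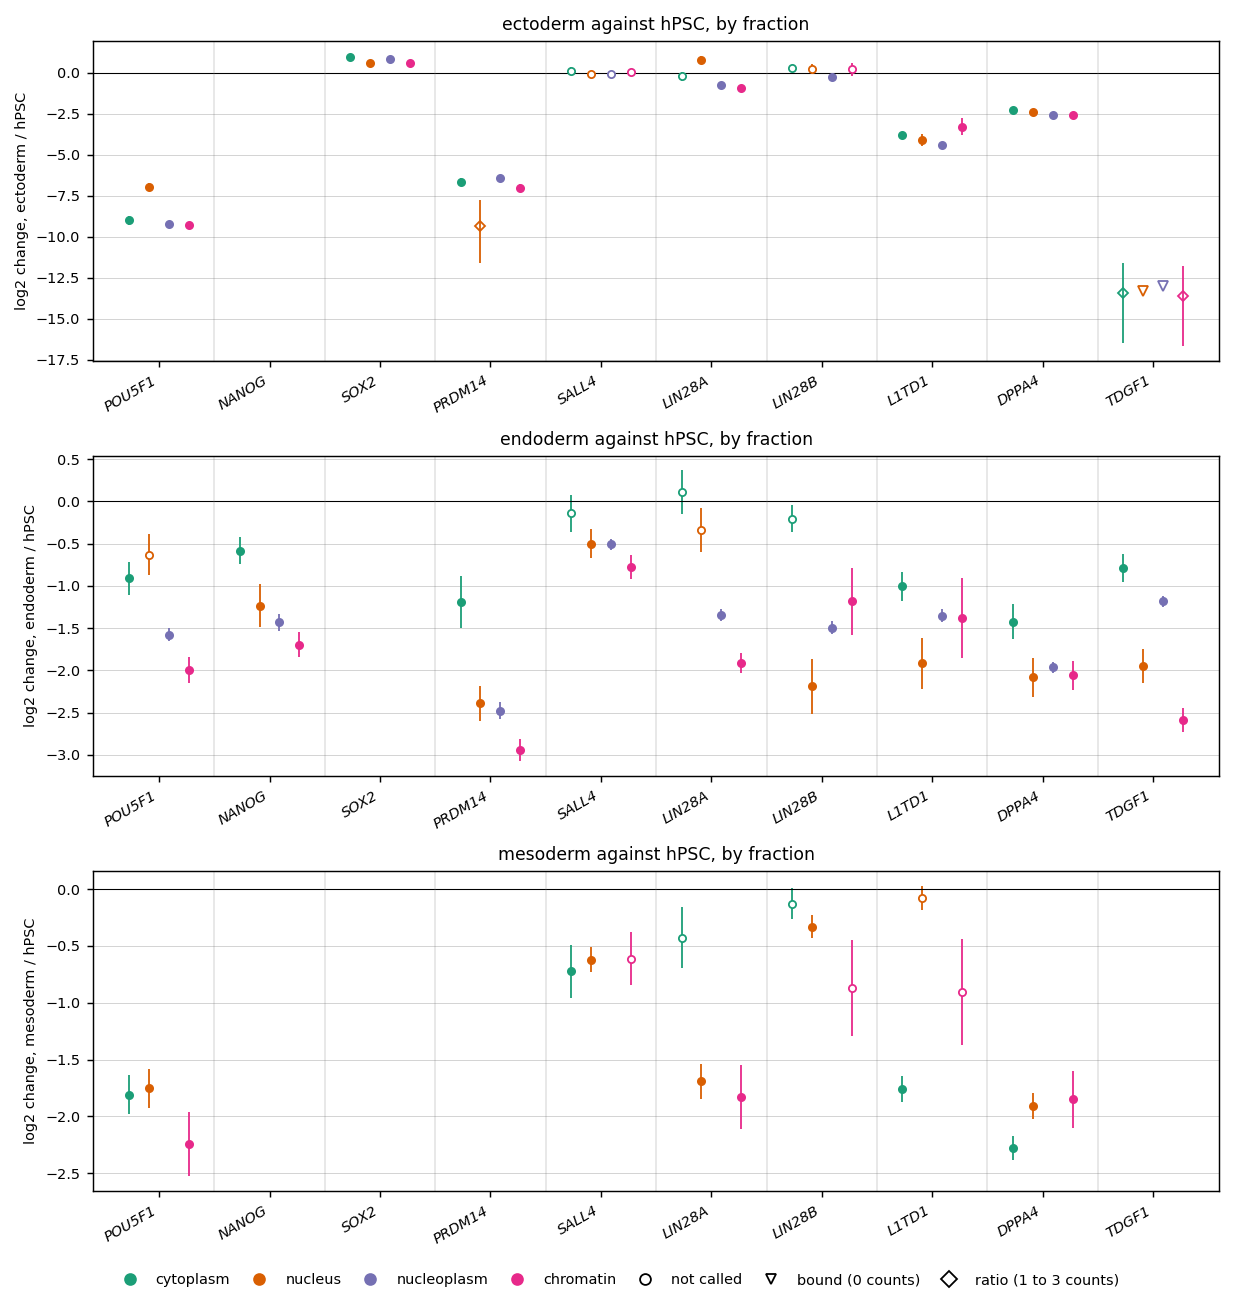
Log2 difference of each member between a lineage and hPSC in each fraction, with bars of 1 SE; filled circles were called at an adjusted p under 0.05 and open circles were not, open triangles are bounds where the lineage had 0 counts, and open diamonds are ratios with their exact Poisson intervals where it had 1 to 3 counts. SOX2 in ectoderm is above 0 in all 4 fractions, and POU5F1, PRDM14 and TDGF1 in ectoderm lie furthest below it.

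POU5F1, the octamer-binding factor, measured 3580.0, 2687 and 2595 CPM in the 3 hPSC cytoplasm libraries. It measured 1544, 1751 and 1999 CPM in endoderm cytoplasm, 935, 808 and 932 CPM in mesoderm cytoplasm and 5.19, 5.83 and 7.63 CPM in ectoderm cytoplasm. The 4 groups did not overlap, and their order was hPSC, endoderm, mesoderm and ectoderm. Ectoderm was 511-fold below hPSC (log2 change -9.00, SE 0.28, adjusted p = 1.18e-08). Mesoderm was 3.51-fold below hPSC (log2 change -1.81, SE 0.17, adjusted p = 2.33e-05), and endoderm 1.88-fold (log2 change -0.91, SE 0.20, adjusted p = 0.00325). POU5F1 was also 1.77-fold higher in endoderm than in mesoderm (log2 change 0.82, SE 0.12, adjusted p = 7.1e-05). In chromatin endoderm measured 302, 272 and 211 CPM and hPSC 1182, 1365 and 1190.2 CPM, a 3.99-fold difference (log2 change -1.996, SE 0.15, adjusted p = 2.59e-05) that exceeded the one in cytoplasm by the test of the fraction differences given further on. Mesoderm chromatin, at 251, 164 and 315 CPM, overlapped endoderm chromatin. In the libraries labelled nucleus, endoderm, at 436, 522 and 526 CPM, lay below hPSC, at 1348, 778 and 954 CPM, without a call (log2 change -0.63, SE 0.24, adjusted p = 0.0533), and without endoderm replicate 1 it was called at a log2 change of -0.74 (edgeR adjusted p = 0.00423). In ectoderm POU5F1 measured 7.88, 6.90 and 8.29 CPM in the libraries labelled nucleus, 1.73, 1.89 and 2.08 CPM in nucleoplasm and 2.37, 1.55 and 1.88 CPM in chromatin, so no ectoderm library came near another cell type. POU5F1B, a near-identical copy, stood at 0 to 0.285 CPM in hPSC.

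NANOG, a homeodomain factor, was counted in hPSC and endoderm. It measured 56.7, 86.7 and 87.9 CPM in hPSC cytoplasm and 56.4, 59.9 and 57.3 CPM in endoderm cytoplasm. The groups overlapped through hPSC replicate 1, and the call (log2 change -0.58, SE 0.16, adjusted p = 0.0131) was lost without hPSC replicate 2 or without endoderm replicate 1 and turned to 0.31, uncalled, with transcript IDs of both tables. In chromatin the groups did not overlap, with 62.1, 61.5 and 52.3 CPM in hPSC and 14.3, 15.3 and 15.9 CPM in endoderm, a 3.24-fold difference (log2 change -1.70, SE 0.15, adjusted p = 4.58e-05). The same held in nucleoplasm, at 61.4, 63.2 and 67.7 CPM in hPSC and 15.6, 18.9 and 15.3 CPM in endoderm (log2 change -1.43, SE 0.10, adjusted p = 1.58e-10). The 1 transcript ID that both tables hold covers a part of the hPSC counts and all of those in endoderm. With it, the difference was 1.88-fold in chromatin (log2 change -0.91, edgeR adjusted p = 0.00189) and 1.54-fold in nucleoplasm (log2 change -0.62, edgeR adjusted p = 0.00102). Among libraries labelled nucleus, endoderm measured 8.26, 20.1 and 20.1 CPM and hPSC 59.3, 38.9 and 47.7 CPM (log2 change -1.23, SE 0.25, adjusted p = 0.00318), which was not called with the shared ID (log2 change -0.62, edgeR adjusted p = 0.146). Between cytoplasm and these libraries the change in NANOG was not called apart (log2 change 0.64, SE 0.31, adjusted p = 0.139), and between cytoplasm and chromatin it was (log2 change -1.13, SE 0.23, adjusted p = 0.00183). In a second deposited table that counts ectoderm on an assembly of all cell types, NANOG had 0 counts in 11 ectoderm libraries and 2 counts in 1. The copy NANOGP8 was listed at 5.32 to 15.0 CPM in hPSC and 1.27 to 11.5 CPM in endoderm, and reads shared between it and NANOG make both levels uncertain.

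SOX2, an HMG-box factor of pluripotent and neural cells, was higher in ectoderm than in hPSC in all 4 fractions. It measured 197, 181 and 192 CPM in hPSC cytoplasm and 427, 325 and 437 CPM in ectoderm cytoplasm, without overlap, a 1.92-fold difference (log2 change 0.94, SE 0.12, adjusted p = 4.93e-05). In nucleoplasm it measured 275, 328 and 287 CPM in hPSC and 556, 563 and 549 CPM in ectoderm (log2 change 0.81, SE 0.08, adjusted p = 8.3e-08). The groups were apart in the other fractions too, with 299, 301 and 212 CPM in hPSC chromatin and 389, 391 and 408 CPM in ectoderm chromatin (log2 change 0.58, SE 0.15, adjusted p = 0.0115). Among libraries labelled nucleus the log2 change was 0.56 (SE 0.12, adjusted p = 0.0029).

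PRDM14, a zinc finger factor of pluripotent and germ cells, measured 41.1, 44.7 and 54.6 CPM in hPSC cytoplasm, 10.8, 28.9 and 29.2 CPM in endoderm cytoplasm and 0.491, 0.388 and 0.595 CPM in ectoderm cytoplasm. Endoderm replicate 1 lay well below the other 2, and all 3 groups were apart. Ectoderm was 101-fold below hPSC (log2 change -6.66, SE 0.21, adjusted p = 1.23e-08). Endoderm was 2.28-fold below hPSC in cytoplasm (log2 change -1.19, SE 0.31, adjusted p = 0.00905) and 7.70-fold below it in chromatin (log2 change -2.94, SE 0.13, adjusted p = 2.33e-06), and with transcript IDs of both tables these log2 changes were -2.37 and -4.34. The chromatin libraries measured 101, 90.8 and 99.0 CPM in hPSC, 11.1, 10.0 and 10.5 CPM in endoderm and 0.963, 0.666 and 0.547 CPM in ectoderm. The 3 ectoderm libraries labelled nucleus held 3 counts in all, a ratio to hPSC of 638-fold lower with an exact 95% Poisson interval of 218 to 3095 that covers counting error of the low group only.

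SALL4, a zinc finger factor of pluripotent cells, had the smallest ratio of highest to lowest CPM over libraries among the 6 members counted in all tables. It measured 136, 250.5 and 283 CPM in hPSC cytoplasm, 269.7, 261 and 243 CPM in ectoderm and 218, 239.7 and 221 CPM in endoderm cytoplasm, and the hPSC range covered both. Ectoderm and hPSC were not called apart in any fraction, with log2 changes of 0.10 (SE 0.23) for the cytoplasm, -0.08 (SE 0.11) for the libraries labelled nucleus, -0.06 (SE 0.07) for nucleoplasm and 0.06 (SE 0.12) for chromatin. Mesoderm cytoplasm measured 164, 133 and 134 CPM, a log2 change of -0.72 (SE 0.23, adjusted p = 0.0223) from hPSC that lost its call in 4 of the 6 fits that left out 1 library. In endoderm chromatin SALL4 measured 188, 149 and 185 CPM against 325, 334 and 412 CPM in hPSC, without overlap (log2 change -0.78, SE 0.14, adjusted p = 0.00188). Without hPSC cytoplasm replicate 1, SALL4 was also lower in endoderm cytoplasm (log2 change -0.39, edgeR adjusted p = 0.0053).

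LIN28A and LIN28B, the let-7 antagonists, stayed abundant in the cytoplasm of every lineage. LIN28A measured 1098, 2290.2 and 2368 CPM in hPSC cytoplasm, 1899.7, 1531 and 1884 CPM in ectoderm, 2352, 2363 and 2244 CPM in endoderm and 1497, 1531 and 1504 CPM in mesoderm. No lineage was called against hPSC there, and hPSC replicate 1 stood apart from the other 2. Without that library LIN28A was lower than hPSC in ectoderm (log2 change -0.51, edgeR adjusted p = 0.000879) and in mesoderm (log2 change -0.71, edgeR adjusted p = 3.6e-05). In chromatin every hPSC library lay above every lineage, and endoderm and mesoderm overlapped: hPSC measured 1779, 1895 and 2036 CPM, ectoderm 1006, 866 and 1079 CPM, endoderm 393, 433 and 443 CPM and mesoderm 461, 367 and 659 CPM. The log2 change from hPSC in chromatin was -0.92 (SE 0.11, adjusted p = 0.000172) in ectoderm, -1.91 (SE 0.12, adjusted p = 9.46e-06) in endoderm and -1.83 (SE 0.28, adjusted p = 0.00119) in mesoderm. Among libraries labelled nucleus LIN28A in endoderm was not called against hPSC (log2 change -0.34, SE 0.26, adjusted p = 0.295), and without endoderm replicate 1 it was lower (log2 change -0.555, edgeR adjusted p = 0.0135). LIN28A in the ectoderm libraries labelled nucleus was higher than in hPSC (log2 change 0.79, SE 0.20, adjusted p = 0.0062), and lower in nucleoplasm (log2 change -0.77, SE 0.08, adjusted p = 1.21e-07).

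LIN28B measured 119.9, 155 and 169.9 CPM in hPSC cytoplasm, 239, 161 and 179 CPM in ectoderm, 143, 169 and 120.2 CPM in endoderm and 152, 153 and 127 CPM in mesoderm, groups that overlapped and were not called against hPSC. Without hPSC replicate 1 LIN28B was called lower in endoderm (log2 change -0.32, edgeR adjusted p = 0.047) and in mesoderm (log2 change -0.26, edgeR adjusted p = 0.0132). In nucleoplasm endoderm measured 41.9, 42.0 and 44.9 CPM against 183, 156 and 180.5 CPM in hPSC, a 2.82-fold difference (log2 change -1.50, SE 0.08, adjusted p = 1.48e-12). In endoderm chromatin LIN28B measured 42.1, 56.5 and 43.7 CPM and in hPSC chromatin 163, 165 and 54.9 CPM, where hPSC replicate 3 fell among the endoderm libraries. That call (log2 change -1.19, SE 0.39, adjusted p = 0.0287) was kept in 1 of the 6 fits that left out 1 library, and without hPSC replicate 3 the log2 change was -1.56. Mesoderm chromatin was not called (log2 change -0.87, SE 0.42, adjusted p = 0.125), and without hPSC replicate 3 it was lower (log2 change -1.24, edgeR adjusted p = 0.00903). The 4 tables split LIN28B over different transcripts, and several differences changed direction with the transcripts counted. Transcript IDs held by both hPSC and a lineage cover a minor part of the hPSC counts and most or all of the lineage's. A fit on these IDs thus sets a part against a whole. Endoderm libraries labelled nucleus stayed lower in it, without a call (log2 change -0.66). With only transcript IDs held by both tables, LIN28B was higher than hPSC in endoderm nucleoplasm (log2 change 0.50), ectoderm nucleoplasm (1.81), endoderm cytoplasm (1.97) and mesoderm cytoplasm (2.14).

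L1TD1 and DPPA4 were lower in the cytoplasm of all 3 lineages. L1TD1, a pluripotency RNA-binding protein derived from a LINE-1 element, measured 479, 541 and 587 CPM in hPSC cytoplasm, 237, 363 and 295 CPM in endoderm, 182, 163 and 158 CPM in mesoderm and 47.7, 35.8 and 43.0 CPM in ectoderm. The 4 groups were apart in that order. The differences from hPSC were 2.01-fold in endoderm (log2 change -1.01, SE 0.17, adjusted p = 0.000812), 3.38-fold in mesoderm (log2 change -1.76, SE 0.11, adjusted p = 2.23e-06) and 13.8-fold in ectoderm (log2 change -3.79, SE 0.13, adjusted p = 2.08e-08). With transcript IDs of both tables the endoderm log2 change was -2.15, a fit that counts 1 of 5 L1TD1 rows in hPSC and 1 of 7 in endoderm. On the assembly of all cell types ectoderm cytoplasm measured 72.8, 71.0 and 81.8 CPM, above its level in the ectoderm table, so the fold in ectoderm holds for these tables only, and hPSC was not analysed on that assembly here. In the libraries labelled nucleus mesoderm measured 135, 147 and 171 CPM and overlapped hPSC at 157, 132 and 131 CPM (log2 change -0.08, SE 0.11, adjusted p = 0.54). The hPSC chromatin libraries measured 538, 480.2 and 124 CPM, with replicate 3 far below the other 2. Without it, L1TD1 was called lower in mesoderm chromatin (log2 change -1.33, edgeR adjusted p = 0.00382), where all libraries gave -0.91 (adjusted p = 0.15), and in endoderm chromatin the log2 change went from -1.38 to -1.80. The endoderm call with all libraries (adjusted p = 0.0338) was lost in the other 5 fits that left out 1 library.

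DPPA4, a chromatin-associated protein of pluripotent cells and the early embryo, measured 711, 701 and 733 CPM in hPSC cytoplasm, 206, 372 and 317 CPM in endoderm, 173, 149.8 and 146 CPM in mesoderm and 181, 133 and 157 CPM in ectoderm. The log2 change from hPSC was -1.42 (SE 0.20, adjusted p = 0.000271) in endoderm, -2.28 (SE 0.10, adjusted p = 3.67e-07) in mesoderm and -2.31 (SE 0.12, adjusted p = 1.94e-07) in ectoderm. Mesoderm and ectoderm overlapped and were not called apart (log2 change 0.00, SE 0.08, adjusted p = 0.98). Its log2 changes in chromatin were -2.06 in endoderm, -1.85 in mesoderm and -2.58 in ectoderm.

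TDGF1, the NODAL co-receptor, measured 363, 465 and 473 CPM in hPSC cytoplasm and 232, 321 and 293 CPM in endoderm cytoplasm, without overlap (log2 change -0.79, SE 0.16, adjusted p = 0.0027). In chromatin endoderm measured 90.5, 92.4 and 84.3 CPM and hPSC 695, 676 and 541 CPM, without overlap (log2 change -2.58, SE 0.14, adjusted p = 6.06e-06). In ectoderm TDGF1 was at or near 0 in all 12 libraries. The 3 cytoplasm libraries of ectoderm held 2 counts, which is 11009-fold below hPSC with an exact 95% Poisson interval of 3048 to 90907 for the low group alone. The nucleoplasm and nucleus libraries of ectoderm held 0 counts, and against a floor of 3 counts over the group TDGF1 was at least 8200.2-fold lower in nucleoplasm and at least 10251-fold lower in nucleus.

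Between lineages in cytoplasm, 8 of 8 members were called in ectoderm against endoderm, 2 higher (SALL4 and LIN28B) and 6 lower, with 37.1% and 37.0% of all genes. The LIN28B call turned to the other direction with transcript IDs of both tables (log2 change -1.80). That fit sets a minor part of the ectoderm LIN28B counts against all of those in endoderm. The small LIN28A difference (log2 change -0.28, SE 0.10, adjusted p = 0.029) kept its call in 2 of the 6 fits that left out 1 library, and SALL4 lost its call without ectoderm replicate 2. In ectoderm against mesoderm 4 of 6 were called, 2 higher (SALL4 and LIN28B) and 2 lower (POU5F1 and L1TD1), with 34.5% and 33.6% of all genes. In endoderm against mesoderm 5 of 6 were called, all 5 of them higher in endoderm and 0 lower, with 27.9% and 31.2% of all genes, and the share of higher calls went from 47.2% to 61.8% without TMM, with a shift of 0.16. POU5F1, SALL4, LIN28A, L1TD1 and DPPA4 were the members higher in endoderm than in mesoderm. L1TD1 turned to lower there with shared transcript IDs (log2 change -0.59), a fit that counts 1 of 7 rows in endoderm and 1 of 2 in mesoderm.

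Within hPSC, 6 of 10 members were called between cytoplasm and the libraries labelled nucleus, 4 higher in cytoplasm and 2 lower, with 35.0% and 30.3% of all genes. L1TD1 (1.87), POU5F1 (1.47), LIN28B (1.32) and NANOG (0.60) were higher in cytoplasm on the log2 scale, and SOX2 (-0.91) and TDGF1 (-0.72) were lower. LIN28A was not called (log2 change 0.45, SE 0.22, adjusted p = 0.0861), and without cytoplasm replicate 1 it was higher in cytoplasm than in these libraries (log2 change 0.72, edgeR adjusted p = 0.000442) and lower in chromatin than in cytoplasm (log2 change -0.415, edgeR adjusted p = 0.015). Between chromatin and cytoplasm 6 of 10 were called, 4 higher in chromatin and 2 lower, with 35.2% and 28.2% of all genes. PRDM14 was 1.88-fold higher in chromatin (log2 change 0.91, SE 0.12, adjusted p = 1.85e-05), and SALL4, TDGF1 and SOX2 were higher by 0.54, 0.41 and 0.36. POU5F1 (log2 change -1.40, SE 0.19, adjusted p = 2.58e-05) and NANOG (log2 change -0.54, SE 0.16, adjusted p = 0.0112) were lower in chromatin, and on the submitters' TPM NANOG turned to 0.26 without a call. The smaller calls rested on single libraries: SALL4 lost its call without chromatin replicate 3 (log2 change 0.43), TDGF1 without chromatin replicate 1 and NANOG without cytoplasm replicate 2, and SOX2 kept its call in 2 of 6 such fits. Between chromatin and nucleoplasm 2 of 10 were called, 1 higher (PRDM14, log2 change 0.61, SE 0.12, adjusted p = 0.00207) and 1 lower (L1TD1, log2 change -1.41, SE 0.36, adjusted p = 0.0114), beside 17.1% and 13.3% of all genes. Without chromatin replicate 3 the L1TD1 value was -0.99, and without TMM the share of higher calls over all genes went from 56.3% to 86.5% with a shift of 0.23.

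Within ectoderm TDGF1 did not pass the filter on low counts, and the other 8 members did. Between cytoplasm and the libraries labelled nucleus 6 of 8 were called, 3 higher in cytoplasm and 3 lower, with 27.2% and 26.5% of all genes. L1TD1 (47.7, 35.8 and 43.0 CPM in cytoplasm and 15.1, 3.10 and 7.18 CPM in nucleus), LIN28B and PRDM14 were higher in cytoplasm, and POU5F1, SOX2 and LIN28A were lower. On the assembly of all cell types L1TD1 measured 72.8, 71.0 and 81.8 CPM in cytoplasm and 35.0, 26.6 and 31.8 CPM in nucleus, and its log2 change went from 2.12 to 0.97, still called. There L1TD1 was also called lower in chromatin than in cytoplasm (-0.51) and nucleoplasm (-0.37), which it was not in the ectoderm table. PRDM14 had 7, 7 and 11 counts in cytoplasm and 1 in each nucleus library, a ratio of 7.43 with an exact 95% Poisson interval of 2.54 to 36.0 for the nucleus counts alone. The POU5F1 call was lost without cytoplasm replicate 1 or nucleus replicate 2. Between chromatin and cytoplasm 5 of 8 were called, 0 higher and 5 lower in chromatin, with 29.0% and 31.7% of all genes. POU5F1 (log2 change -2.01, SE 0.22, adjusted p = 5.05e-06) and LIN28A (log2 change -1.17, SE 0.14, adjusted p = 1.04e-05) led. DPPA4, SOX2 and LIN28B were lower by less, and on the submitters' TPM these 3 turned to 0.82, 0.81 and 0.38. SOX2 kept its call in 1 of the 6 fits that left out 1 library, and LIN28B in 2. Between chromatin and nucleoplasm 3 of 8 were called, 0 higher and 3 lower in chromatin, with 18.5% and 25.7% of all genes. SOX2 was lower in chromatin (log2 change -0.78, SE 0.10, adjusted p = 7.17e-05), and the calls of LIN28A and DPPA4 were kept in 0 and 1 of 6 such fits and turned to 0.33 and 0.56 on TPM. Without TMM the share of higher calls over all genes went from 50.7% to 76.4% between cytoplasm and nucleus (shift 0.34), from 47.8% to 64.9% between chromatin and cytoplasm (shift 0.32) and from 41.8% to 71.0% between chromatin and nucleoplasm (shift 0.29).

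Within endoderm 8 members were called in each comparison with cytoplasm. Between cytoplasm and the libraries labelled nucleus 8 of 9 were called, 8 higher in cytoplasm and 0 lower, with 34.3% and 35.4% of all genes. LIN28B measured 143, 169 and 120.2 CPM in cytoplasm and 3.56, 12.2 and 13.8 CPM in nucleus, a 9.48-fold difference (log2 change 3.25, SE 0.28, adjusted p = 1.17e-07), and without nucleus replicate 1 the log2 change was 2.93. L1TD1 was 6.58-fold higher in cytoplasm (log2 change 2.72, SE 0.27, adjusted p = 5.09e-07). The TDGF1 call was lost without cytoplasm replicate 2 or 3. SALL4 was not called here, and without TMM it was called higher in cytoplasm (log2 change 0.68). Between chromatin and cytoplasm 8 of 9 were called, 0 higher and 8 lower in chromatin, with 37.7% and 35.3% of all genes. POU5F1 (log2 change -2.59, SE 0.19, adjusted p = 1.63e-08), LIN28A (log2 change -2.30, SE 0.18, adjusted p = 4.31e-08), NANOG (log2 change -1.77, SE 0.19, adjusted p = 1.01e-06) and TDGF1 (log2 change -1.50, SE 0.15, adjusted p = 4.96e-07) were lowest in chromatin relative to cytoplasm. LIN28B, L1TD1, PRDM14 and DPPA4 were lower too, with log2 changes of -1.45, -1.12, -0.97 and -0.70, and SALL4 was not called (log2 change -0.22, SE 0.13, adjusted p = 0.138). The DPPA4 call was lost without chromatin replicate 1 or cytoplasm replicate 2. The median of the members was -1.45 and that of all genes 0.05. Between chromatin and nucleoplasm 5 of 9 were called, 0 higher and 5 lower in chromatin, with 22.9% and 30.6% of all genes. TDGF1 measured 90.5, 92.4 and 84.3 CPM in chromatin and 199, 205 and 184 CPM in nucleoplasm (log2 change -1.72, SE 0.15, adjusted p = 3.99e-07), and L1TD1 was next (log2 change -1.52, SE 0.26, adjusted p = 0.000173). LIN28A (-0.74), NANOG (-0.71) and POU5F1 (-0.55) followed, and POU5F1 turned to 0.025 without TMM and to 0.078 on TPM, both uncalled, and lost its call without nucleoplasm replicate 2 or chromatin replicate 3. Without TMM the share of higher calls went from 49.2% to 71.4% between cytoplasm and nucleus (shift 0.70) and from 42.8% to 73.8% between chromatin and nucleoplasm (shift 0.58).

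In mesoderm 3 of 6 members were called between cytoplasm and nucleus, 3 higher in cytoplasm and 0 lower, with 31.8% and 31.4% of all genes. LIN28A (log2 change 1.79, SE 0.23, adjusted p = 5.99e-05), LIN28B (log2 change 1.60, SE 0.20, adjusted p = 5.36e-05) and POU5F1 (log2 change 1.48, SE 0.23, adjusted p = 0.000197) were higher in cytoplasm. Between chromatin and cytoplasm 4 of 6 were called, 1 higher and 3 lower in chromatin, with 33.9% and 32.4% of all genes. The same 3 genes were lower in chromatin, POU5F1 with a log2 change of -2.07, LIN28A of -1.80 and LIN28B of -1.34. SALL4 was higher in chromatin at the threshold (log2 change 0.40, SE 0.16, adjusted p = 0.0499) and kept that call in 2 of the 6 fits that left out 1 library. L1TD1 and DPPA4 were not called in either comparison. The mesoderm nucleoplasm library stood at 482 CPM for POU5F1, 373 CPM for LIN28A and 293 CPM for L1TD1, with no replicate.

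**Figure D3:**
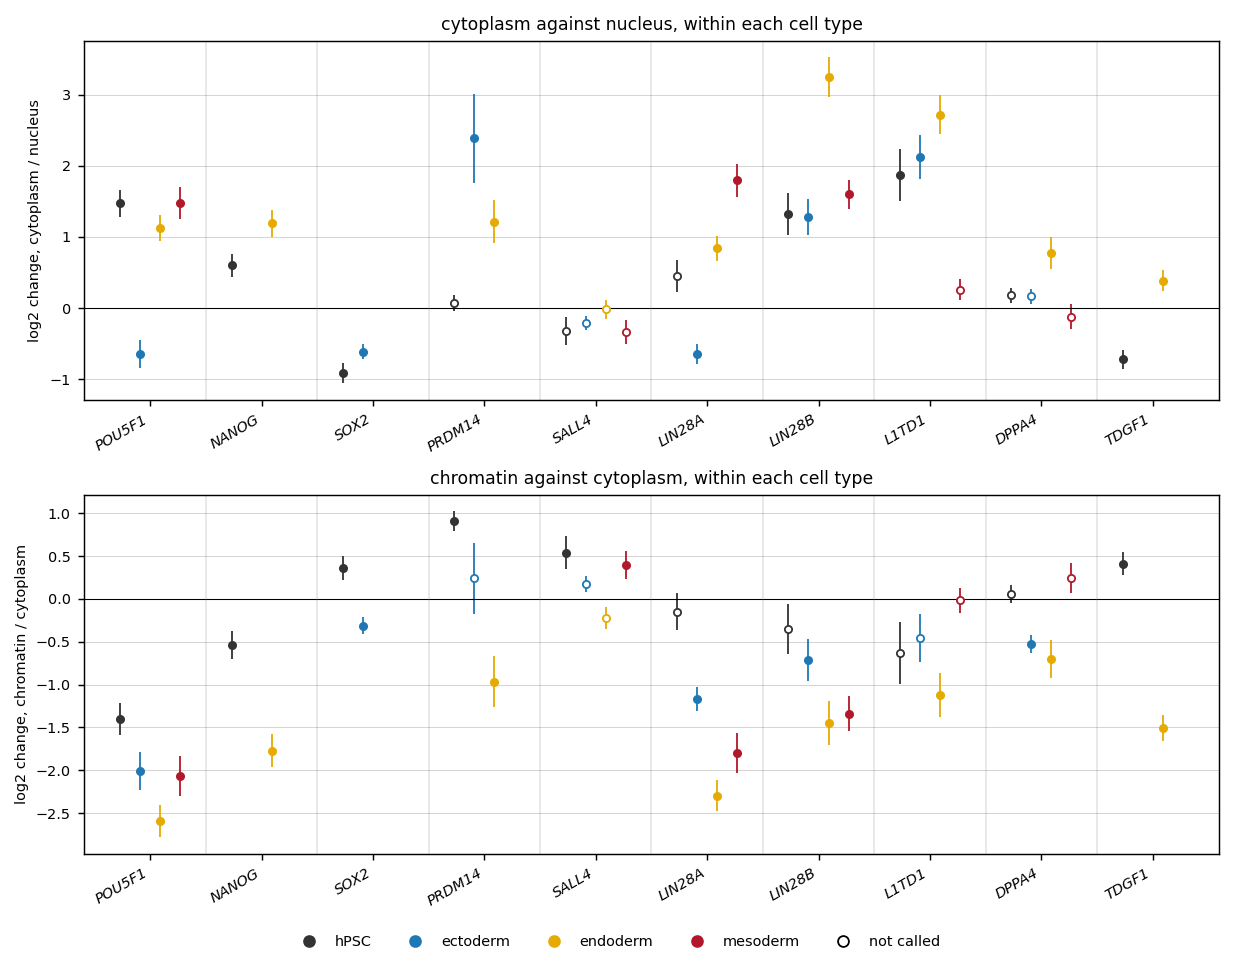
Log2 difference of each member between fractions of the same cell type (cytoplasm against libraries labelled nucleus, and chromatin against cytoplasm), with bars of 1 SE; filled circles were called at an adjusted p under 0.05 and open ones were not. POU5F1 lies below 0 for chromatin against cytoplasm in all 4 cell types, from -1.40 in hPSC to -2.59 in endoderm.

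The difference between fractions was itself compared with hPSC in 1 model of both cell types. For chromatin against cytoplasm, a comparison added after the values were seen, endoderm differed from hPSC in 5 of 9 members, 0 higher and 5 lower, with 16.5% and 18.9% of all genes. LIN28A (log2 change -2.04, SE 0.31, adjusted p = 0.000304), TDGF1 (log2 change -1.81, SE 0.21, adjusted p = 6.21e-05), PRDM14 (log2 change -1.78, SE 0.40, adjusted p = 0.0037), NANOG (log2 change -1.13, SE 0.23, adjusted p = 0.00183) and POU5F1 (log2 change -1.10, SE 0.25, adjusted p = 0.00405) were relatively less abundant in endoderm chromatin than in hPSC chromatin. Without hPSC chromatin replicate 3, LIN28B (-1.33) and L1TD1 (-0.78) were called as well. The cytoplasmic mRNAs ACTB (-1.45), RPLP0 (-0.92), GAPDH (-1.72) and EEF1A1 (-1.85) were called lower in the same test of endoderm, and MALAT1 (3.01) higher. Whether the members differ from such mRNAs was not tested. In mesoderm 1 of 6 was called, 0 higher and 1 lower, with 3.19% and 7.31% of all genes. It was LIN28A (log2 change -1.59, SE 0.40, adjusted p = 0.0255), whose call was lost without mesoderm cytoplasm replicate 1, 2 or 3 or hPSC chromatin replicate 2. In ectoderm 1 of 9 was called, 0 higher and 1 lower, with 8.64% and 14.4% of all genes. It was DPPA4 (log2 change -0.43, SE 0.14, adjusted p = 0.0482), and it was not called in 9 of the 12 fits that left out 1 library. Calls were gained in ectoderm for SOX2 (-0.65) and in mesoderm for LIN28B (-1.25) without hPSC chromatin replicate 3, and in ectoderm for LIN28A (-0.57) without hPSC cytoplasm replicate 1. The share of higher calls over all genes went from 46.6% to 20.0% for endoderm without TMM (shift -0.41), and in DESeq2 from 37.4% to 48.4% for ectoderm and from 30.4% to 50.6% for mesoderm.

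For cytoplasm against the libraries labelled nucleus, ectoderm differed from hPSC in 4 of 9 members, 2 higher and 2 lower, with 27.2% and 21.7% of all genes. POU5F1, higher in hPSC cytoplasm and lower in ectoderm cytoplasm than in nucleus, had a difference of -1.94 (SE 0.30, adjusted p = 0.000254). PRDM14 had a fitted difference of 2.47 (SE 0.50, adjusted p = 0.00161), which is no bound, since the ectoderm libraries labelled nucleus held 3 PRDM14 counts in all. SOX2 and LIN28A differed by 0.47 and -0.93, calls kept in 5 and 4 of the 12 fits that left out 1 library. The cytoplasmic mRNAs ACTB (-1.28), RPLP0 (-2.09), GAPDH (-1.38) and EEF1A1 (-1.355) were called lower in the same test of ectoderm, and MALAT1 (1.74) and NEAT1 (1.34) higher. Endoderm differed in 3 of 9 members, 3 higher and 0 lower, with 12.9% and 12.3% of all genes. LIN28B (log2 change 1.96, SE 0.37, adjusted p = 0.00322), TDGF1 (log2 change 1.15, SE 0.24, adjusted p = 0.00571) and PRDM14 (log2 change 1.19, SE 0.41, adjusted p = 0.0454) were relatively higher in endoderm cytoplasm, and PRDM14 kept its call in 2 of 12 such fits and was not called without hPSC cytoplasm replicate 1 (1.13). Mesoderm differed in 2 of 6, 1 higher and 1 lower, with 25.2% and 12.8% of all genes. LIN28A was relatively higher in mesoderm cytoplasm (log2 change 1.42, SE 0.33, adjusted p = 0.00343) and L1TD1 relatively lower (log2 change -1.53, SE 0.15, adjusted p = 7.83e-06). The share of higher calls over all genes went from 51.2% to 93.0% in endoderm without TMM (shift 0.59), and in mesoderm from 66.3% to 39.5% without TMM (shift -0.25) and from 66.3% to 55.9% in DESeq2. These differences rest on the libraries labelled nucleus, whose mitochondrial share was above that of cytoplasm in hPSC, ectoderm and endoderm and below it in mesoderm, and the part of that in them was not tested.

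The tables also differed in the transcripts behind a gene. The members had 20 transcripts in the hPSC table, 16 in that of ectoderm, 20 in that of endoderm and 13 in that of mesoderm, of which 13, 12, 11 and 9 carried an Ensembl transcript. POU5F1 had 1 row in each table, ENST00000259915. NANOG had 2 rows in hPSC, ENST00000229307 with 58.47% of its counts and ENST00000541267 with 41.53%, and the endoderm table held only ENST00000229307. The share of ENST00000541267 in hPSC was 46.6% ± 2.84 for cytoplasm, 36.0% ± 6.39 for libraries labelled nucleus, 41.7% ± 2.69 for nucleoplasm and 38.7% ± 4.63 for chromatin (SD, n = 3), with overlapping ranges in part. ENST00000541267 starts at position 7787794 of chromosome 12, upstream of the promoter shown above, and has 559 coding bases, and ENST00000229307 has 915. The annotation of ENST00000541267 ends inside the last coding exon of ENST00000229307, and the 284 coding bases beyond that end, chr12:7794809-7795092 on the plus strand, are shown because reads in them can come from ENST00000229307 alone of the pair. The sequence is from the GENCODE release 29 transcripts, with no capitals.
NANOG ENST00000229307: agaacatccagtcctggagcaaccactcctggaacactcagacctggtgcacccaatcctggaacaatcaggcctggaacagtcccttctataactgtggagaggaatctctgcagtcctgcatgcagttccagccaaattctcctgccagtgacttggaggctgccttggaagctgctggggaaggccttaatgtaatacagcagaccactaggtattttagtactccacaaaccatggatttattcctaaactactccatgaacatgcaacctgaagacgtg
LIN28B was split differently in each table. In hPSC 2 assembled transcripts without an Ensembl ID took 53.99% and 14.45% of its counts and ENST00000637759 took 30.77%. In ectoderm ENST00000345080 took 72.36% and ENST00000637759 took 18.35%, in endoderm ENST00000637759 took all of them, and in mesoderm ENST00000345080 took 90.86%. ENST00000345080 starts at position 104957048 of chromosome 6 and ENST00000637759 at 104940866, upstream of it. Counts of transcript rows are estimates that depend on the assembly, so these shares describe the tables.

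**Figure D4:**
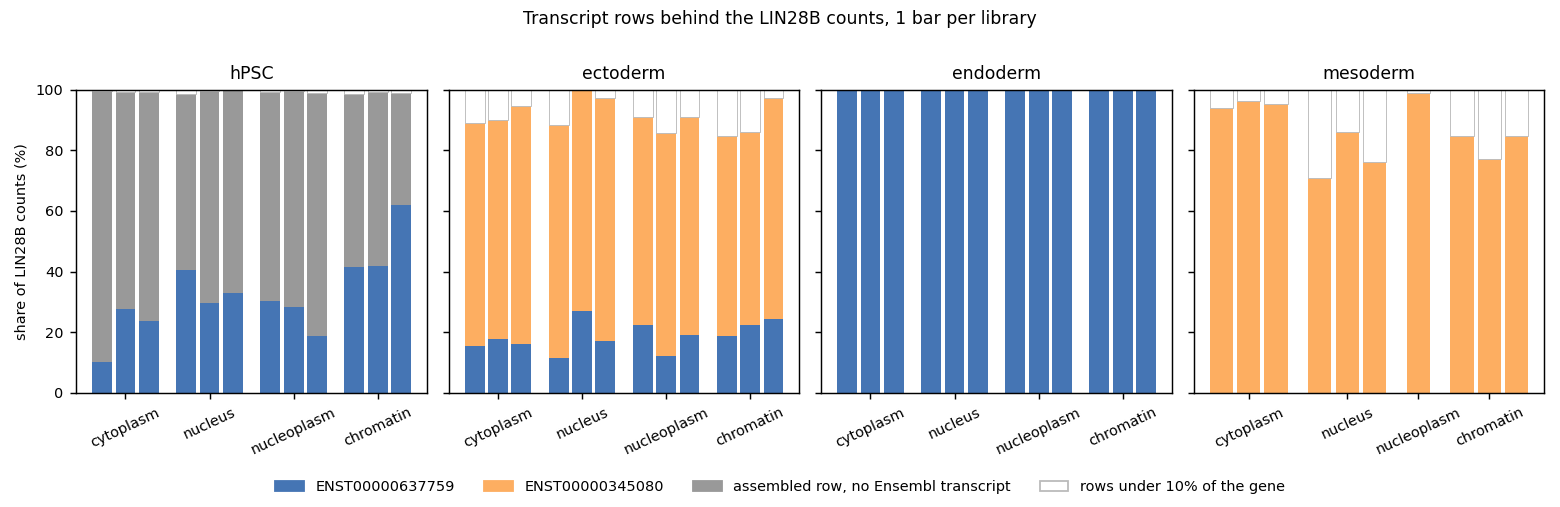
Share of the LIN28B counts taken by each transcript row, in percent, with 1 bar for each library by cell type and fraction; white is the remainder in rows under 10% of the gene. ENST00000637759 takes all counts in endoderm and 10.0% to 61.9% across the hPSC libraries, and ENST00000345080 leads in ectoderm and mesoderm.

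Across the 16 groups, the correlation of mean log levels between POU5F1 and L1TD1 was 0.76, between L1TD1 and DPPA4 0.72, between POU5F1 and DPPA4 0.62, and between POU5F1 and SALL4 -0.35. These are descriptions over groups that share a table, a library set and an assembly in blocks of 4. Of 8478 genes in all 4 tables with a mean of at least 10 CPM in hPSC cytoplasm, those with a pattern over the 16 groups most like the mean pattern of the 6 members present in all tables were WDR76 (Pearson r = 0.99), DSCC1 (0.976), RRS1 (0.97), ZNF114 (0.969) and CDC6 (0.967). The mean was taken without scaling each gene, so a gene of wide range such as POU5F1 weighs heavily in it. The members did not share 1 pattern, with a correlation of 0.001 between POU5F1 and LIN28A. These r values thus describe likeness to the mean and not to each member.

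A list of 34 other genes of pluripotent cells was read beside the members. In cytoplasm, 20 of the 25 tested in ectoderm were called against hPSC, 1 higher and 19 lower, with a median log2 change of -2.90 beside 0.00 for all genes, of which 36.6% were called higher and 36.6% lower. ESRG (-7.56), POLR3G (-6.17), UTF1 (-5.13) and the DNA methyltransferase DNMT3B (-3.58) were lower and the demethylase TET1 (0.46) was higher. Of 21 tested in endoderm 14 passed, 5 of them higher and 9 lower, beside 26.0% and 24.8% of all genes, with a median of -0.33 beside -0.01. The higher genes were the ligands NODAL (2.49) and FGF4 (1.44), the surface proteins EPCAM (1.42) and PODXL (1.01), and TET1 (0.96), and TRIM71 (-2.98) and TERT (-2.43) were among the lower ones. Of 19 tested in mesoderm 17 passed, 4 of them higher and 13 lower, beside 33.5% and 32.4% of all genes, with a median of -1.53 beside 0.01, led by DPPA2 (-6.12). Between chromatin and cytoplasm in endoderm 18 of the 23 tested in the list were called, 12 higher and 6 lower, with a median of 0.56, where 37.7% of all genes were higher and 35.3% lower and their median was 0.05.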

How the data were processed

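RNA-seq counts per transcript and TPM per transcript were deposited by the authors for each cell type on its own assembly. RSEM, STAR and hg38 are named in the submitters' processing notes without versions, and the counts are whole numbers that may be rounded estimates. A further deposited count table, on a combined assembly, was used for ectoderm only. Columns marked Nei were read as nucleus. The mesoderm nucleoplasm column carries the number 3 and its sample title the number 1, and 1 ectoderm column that matched no sample was left out. Rows without an Ensembl gene held up to 9.603% of counts on the cell types' own assemblies. Summed per assembled locus, they entered the comparisons of fractions within a cell type. They stayed out of every comparison between cell types.

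Counts were summed per gene, and libraries held 4990408 to 21298678 counts. edgeR 4.0.16 in R 4.3.3 was used with TMM, filterByExpr (minimum count 10) and two-sided quasi-likelihood tests, with Benjamini-Hochberg adjustment over all genes tested and a threshold of 0.05. Fractions were compared over all libraries of a cell type, and cell types over both groups of a fraction. The alternatives were no TMM, no filter, DESeq2 1.42.0, limma 3.58.1 on log2 of the deposited TPM plus 1, a replicate block, shared transcript IDs, 1 fit of 4 cell types, and each library left out. Fits were tested on simulated data. The members and lists were chosen with earlier results of these data known, and all members are named. Intervals and floors cover counting error only.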

Additional observations from a re-analysis of the deposited data

Results flagged for a closer look

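For 16 member results the difference between fractions in a lineage departed from that in hPSC by a test of the interaction (edgeR, adjusted p under 0.05). For cytoplasm against the libraries labelled nucleus these were, on the log2 scale, POU5F1 (-1.94), SOX2 (0.47), PRDM14 (2.47) and LIN28A (-0.93) in ectoderm. The PRDM14 value is a fitted one and no bound, since the ectoderm libraries labelled nucleus held 3 PRDM14 counts in all. They were PRDM14 (1.19), LIN28B (1.96) and TDGF1 (1.15) in endoderm, and LIN28A (1.42) and L1TD1 (-1.53) in mesoderm. For chromatin against cytoplasm, a comparison added after the values were seen, they were DPPA4 (-0.43) in ectoderm and LIN28A (-1.59) in mesoderm. In endoderm they were POU5F1 (-1.10), NANOG (-1.13), PRDM14 (-1.78), LIN28A (-2.04) and TDGF1 (-1.81). ACTB, RPLP0, GAPDH and EEF1A1 were also called lower in ectoderm for cytoplasm against nucleus and in endoderm for chromatin against cytoplasm. Some of the 16 member calls were lost when 1 library was left out. Of 12 such fits, the ectoderm calls of SOX2, LIN28A and DPPA4 were kept in 5, 4 and 3. The endoderm call of PRDM14 for cytoplasm against nucleus was kept in 2. The mesoderm call of LIN28A for chromatin against cytoplasm was kept in 8. Of the members, 9 were tested in ectoderm, 9 in endoderm and 6 in mesoderm. For cytoplasm against nucleus, the shares of all genes called higher and lower were 27.2% and 21.7% in ectoderm. They were 12.9% and 12.3% in endoderm and 25.2% and 12.8% in mesoderm. For chromatin against cytoplasm they were 8.64% and 14.4% in ectoderm, 16.5% and 18.9% in endoderm and 3.19% and 7.31% in mesoderm. Each cell type was counted on its own assembly, and an effect of the assembly cannot be told apart from one of the cell type.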

How the results depend on the processing

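Of 160 called member results, 110 stayed called in the same direction in all their alternatives and 50 lost the call or turned in at least 1. Over 2036 such alternatives 1848 kept direction and call, 169 lost the call and 19 turned. Of 91 results that were not called, 63 were called in at least 1 alternative. The cause was not tested for any of these, except where fewer libraries or genes entered.

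On the submitters' TPM, hPSC chromatin against nucleoplasm gave 0.532 for POU5F1 and 0.438 for DPPA4, and hPSC chromatin against cytoplasm gave 0.258 for NANOG and 0.813 for LIN28A. Ectoderm chromatin against nucleoplasm gave 0.326 for LIN28A and 0.556 for DPPA4, and ectoderm chromatin against cytoplasm gave 0.809 for SOX2, 0.377 for LIN28B, 0.747 for L1TD1 and 0.824 for DPPA4. Endoderm chromatin against nucleoplasm gave 0.078 for POU5F1 and 0.479 for SALL4. For L1TD1 in mesoderm, cytoplasm against nucleus gave -0.839 and chromatin against cytoplasm 1.04. Mesoderm nucleus against hPSC gave 0.373 for SALL4, 0.607 for LIN28B and 0.597 for L1TD1, and ectoderm nucleoplasm against hPSC gave 0.191 for SALL4 and 0.018 for LIN28B. The POU5F1 cytoplasm-nucleus difference of mesoderm from hPSC was -0.742.

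Without TMM, SALL4 in endoderm was 0.677 for cytoplasm against nucleus and 0.381 for chromatin against nucleoplasm, where POU5F1 was 0.025. With transcript IDs of both tables, endoderm cytoplasm against hPSC gave 0.306 for NANOG and 1.974 for LIN28B. LIN28B against hPSC was 2.141 in mesoderm cytoplasm, 1.297 in mesoderm nucleus, 0.058 in endoderm chromatin, 1.812 in ectoderm nucleoplasm and 0.498 in endoderm nucleoplasm, and SALL4 was 0.251 in ectoderm nucleoplasm. Ectoderm against endoderm cytoplasm gave 0.009 for LIN28A and -1.802 for LIN28B, and endoderm against mesoderm cytoplasm gave 4.124 for LIN28B and -0.585 for L1TD1. Fits on shared transcript IDs can set a part of the counts of a gene against all of them.

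Counts of called members moved by over 1.5 times in these cases. For hPSC chromatin against nucleoplasm the count was 4 in DESeq2 and 5 on TPM. For ectoderm it was 2 on TPM (cytoplasm against nucleus), 1 without the filter (chromatin against nucleoplasm) and 3 without TMM (chromatin against cytoplasm). For endoderm chromatin against nucleoplasm it was 3 without TMM and 3 on TPM. In the fit of 4 cell types, which holds 6 members, it was 3 for ectoderm cytoplasm, 3 for endoderm cytoplasm, 4 for ectoderm nucleus, 4 for ectoderm chromatin and 5 for ectoderm nucleoplasm against hPSC, and 4 for ectoderm against endoderm. The endoderm cytoplasm-nucleus difference from hPSC gave 8 without TMM and 7 on TPM. The chromatin-cytoplasm difference gave 8 without TMM and 8 on TPM for endoderm. It gave 0 on TPM and 0 with shared transcript IDs for mesoderm, and for ectoderm 0 without TMM, 2 on TPM, 0 with the replicate block and 0 with shared transcript IDs.

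With 1 library left out, the count of called members ran from 2 to 4 for hPSC chromatin against nucleoplasm, from 1 to 2 for ectoderm chromatin against nucleoplasm, from 3 to 5 for ectoderm chromatin against cytoplasm and from 3 to 5 for mesoderm against hPSC in chromatin. It ran from 2 to 5 for the ectoderm cytoplasm-nucleus difference from hPSC, and for the chromatin-cytoplasm difference from 0 to 2 in ectoderm and from 0 to 2 in mesoderm.

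Pairing by replicate number was looked for in correlations of same-numbered libraries. They were all over 0.1 in 0 of 11 comparisons of fractions and 0 of 21 of cell types. With so few libraries in a group, this rule cannot exclude a pairing. With the replicate number as a block, 153 of the 160 results stayed called, 7 were lost, 0 were gained and 0 changed sign.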
